A study of Homo sapiens with 2 samples.

Results

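A set of 10 aldehyde dehydrogenase genes was followed in NCI-H460 cells after knockdown of the fatty acid omega hydroxylase CYP4F11. They were ALDH1A1, ALDH1A3, ALDH1B1, ALDH2, ALDH3A1, ALDH3A2, ALDH3B1, ALDH5A1, ALDH7A1 and ALDH9A1. They were found by symbol, and these 10 were all present among the 58735 genes of the count table. Of the 10, 9 had a mean of at least 1 CPM (counts brought to equal library size) and are called measured, as were 13942 genes in all. ALDH1A3 was below that level.

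Omega hydroxylases of the CYP4 family put a hydroxyl group on the far end of a fatty acid. Alcohol dehydrogenases turn the product into an aldehyde, and aldehyde dehydrogenases oxidise that aldehyde to a dicarboxylic acid, which peroxisomes shorten. ALDH3A2, the fatty aldehyde dehydrogenase of the endoplasmic reticulum, is the best known enzyme of this last oxidation. Its loss causes Sjogren-Larsson syndrome. The other members act on retinal, acetaldehyde, lipid peroxidation products and the semialdehydes of amino acid breakdown.

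One culture received an siRNA against CYP4F11 (siCYP4F11), and the other was labelled siControl. Both groups were NCI-H460, a human large cell lung carcinoma line whose source is given as lung and pleural effusion. RNA was taken 24 h after transfection, and there was 1 library per group. The design text calls the line NCI-H469 in place of the name in the labels, which is used here. No siRNA sequence was used here, and the control's label names no control sequence. No difference below therefore has a replicate check, and no p-value was computed. Intervals are exact 95% intervals for counting error alone, and reads of the same molecule cannot be recognised without molecular identifiers.

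The siCYP4F11 library held 13002179 counts and the siControl library 16207785. CYP4F11 had 972 counts in siCYP4F11 cells, against 3180 in siControl cells. That was 74.5 CPM in siCYP4F11 cells and 197 CPM in siControl cells, or 37.8% of the control level (log2 ratio -1.40, -1.51 to -1.30). In bulk RNA, fewer expressing cells and less RNA per cell cannot be told apart, here and below. KRT8, KRT18 and KRT19, keratins of simple epithelia, were abundant in both libraries. Each was lower in siCYP4F11 cells, at log2 ratios between -0.30 and -0.08 with intervals excluding 0. Summed with EPCAM and CDH1, the 5 epithelial markers had a log2 ratio of -0.26 (-0.28 to -0.24). After a correction for transcript GC content KRT18 was at 0.007 (-0.04 to 0.06), so its interval included 0. KRT8 was then at -0.20 and KRT19 at -0.18, with intervals excluding 0. EPCAM and CDH1, epithelial adhesion markers, were near absent, with 8 and 0 counts in siCYP4F11 cells and 6 and 1 in siControl cells. Alveolar and airway markers summed to 26 counts over 10 genes in siCYP4F11 cells and 25 in siControl cells. Leukocyte markers summed over 6 genes to 34 counts in siCYP4F11 cells and 23 in siControl cells, and endothelial markers over 4 genes to 6 in siCYP4F11 cells and 1 in siControl cells. Of these lists, SFTPA1, SFTPA2, SFTPD, SCGB1A1, FOXJ1, PTPRC, CD3E, PECAM1, VWF and CDH5 had no count in either library. AGER gave most of the alveolar and airway counts, 22 in siCYP4F11 cells and 21 in siControl cells. SFTPC had 3 counts in siCYP4F11 cells and 0 in siControl cells, and all endothelial counts were from KDR. Fibroblast markers summed over 6 genes to 1138 counts (87.2 CPM) in siCYP4F11 cells, 749 of them from COL3A1, and to 1257 counts (77.9 CPM) in siControl cells, 912 of them from COL3A1 (log2 ratio of the sum 0.16, 0.05 to 0.28). Within that list LUM was higher at 0.59 (0.32 to 0.86) and DCN at 0.77 (0.01 to 1.56). Of the leukocyte list CD14 was higher at 1.01 (0.18 to 1.91), on 33 counts in siCYP4F11 cells and 20 in siControl cells. After the GC correction the interval of DCN included 0 (0.66, -0.10 to 1.45), while those of LUM and CD14 excluded it. The part of these markers in the results below was not tested.

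Among the 9 measured members, the pair with the most divergent ratios were ALDH3A2 and ALDH3B1. The bases before their start sites are shown for that reason. The sequences are from the RefSeq promoter table on GRCh38.p14, which held 8 of the 10 members, without ALDH2 and ALDH3A1. Each run is the 250 bases before the annotated start on the plus strand, 5′ to 3′.
ALDH3A2, chr17:19647886-19648135: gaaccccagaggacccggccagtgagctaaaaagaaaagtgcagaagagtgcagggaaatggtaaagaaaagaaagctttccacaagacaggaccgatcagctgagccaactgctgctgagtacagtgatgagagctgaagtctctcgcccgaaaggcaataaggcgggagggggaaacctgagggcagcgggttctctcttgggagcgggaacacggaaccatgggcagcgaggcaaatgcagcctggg
ALDH3B1, chr11:68008297-68008546: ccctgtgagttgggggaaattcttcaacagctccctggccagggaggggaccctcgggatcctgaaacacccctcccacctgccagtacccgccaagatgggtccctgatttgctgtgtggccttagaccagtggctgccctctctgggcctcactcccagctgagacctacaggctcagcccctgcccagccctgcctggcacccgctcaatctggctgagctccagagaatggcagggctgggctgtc
Capitals would mark a match to any of 4 motifs searched on both strands, and neither window had one. The first motif was the core of the antioxidant response element, TGACNNNGC, found in 10.9% of 35116 promoter windows of the same length. The second was the sterol regulatory element, TCACNCCAC, found in 0.883% of them. The CCAAT box was found in 32.0% and the GC box, searched as GGGCGG, in 42.6%. Of the 8 member windows, 5 held a GC box, 4 a CCAAT box and 0 either of the first motifs. The number of sites of different motifs that overlapped in these windows was 0. The ALDH3A2 start in RefSeq is the first base of the gene in the count table, and that of ALDH3B1 lies 31 bases before it.

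ALDH3A1 was by far the most abundant member. With the deposited gene lengths, the order of the members by TPM was the same in both libraries. Levels of different genes are given as TPM, counts divided by the deposited gene length and brought to the same sum in each library. ALDH3A1, a cytosolic enzyme of aromatic and medium-chain aldehydes, stood at 702 TPM in siCYP4F11 cells (689 to 715) and 725 TPM in siControl cells (713 to 737). ALDH1A1, the cytosolic retinaldehyde dehydrogenase, followed at 311 TPM (301 to 322) in siCYP4F11 cells and 317 TPM (308 to 326) in siControl cells. ALDH9A1 came next at 121 TPM in siCYP4F11 cells and 112 TPM in siControl cells. The 10 members took 22250 counts in siCYP4F11 cells and 27695 in siControl cells, of which ALDH3A1 held 50.8% (50.2% to 51.5%) in siCYP4F11 cells and 51.9% (51.3% to 52.5%) in siControl cells. By CPM, ALDH3A1 ranked 127 among all genes in each library.

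The middle of the order was held by the membrane-bound ALDH3 enzymes. ALDH3A2 stood at 84.8 TPM (81.3 to 88.3) in siCYP4F11 cells and 70.9 TPM (68.1 to 73.9) in siControl cells. ALDH3B1, an enzyme of medium- and long-chain aldehydes, stood at 53.0 TPM (50.3 to 55.8) in siCYP4F11 cells and 66.7 TPM (64.0 to 69.5) in siControl cells. With these lengths the counting intervals of ALDH3A2 and ALDH3B1 overlapped in siControl cells and did not in siCYP4F11 cells, a contrast that depends on the lengths used. ALDH1B1 stood at 33.2 TPM in siCYP4F11 cells and 33.5 TPM in siControl cells, and ALDH7A1 at 13.8 TPM in siCYP4F11 cells and 13.2 TPM in siControl cells. ALDH5A1 was at 7.97 TPM in siCYP4F11 cells and 7.72 TPM in siControl cells, and ALDH2 at 7.73 TPM in siCYP4F11 cells and 6.77 TPM in siControl cells. The intervals of ALDH5A1 and ALDH2 overlapped in each library. ALDH1A3 was last, at 0.421 TPM (0.202 to 0.775) in siCYP4F11 cells and 0.582 TPM (0.339 to 0.931) in siControl cells.

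**Figure D1:**
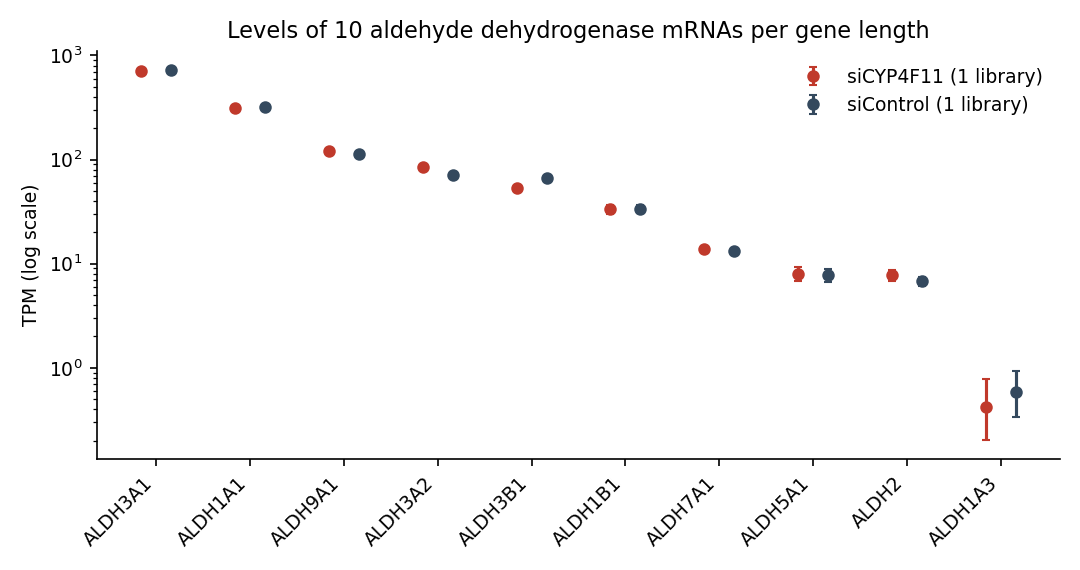
Level of each member in TPM on a log scale, siCYP4F11 (red) left of siControl (dark), 1 library each, with bars for the 95% counting interval. Members run from ALDH3A1 at 702 TPM in siCYP4F11 cells and 725 TPM in siControl cells down to ALDH1A3 at 0.421 TPM in siCYP4F11 cells and 0.582 TPM in siControl cells.

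The lengths used span all exons of a gene, 17970 bases for ALDH7A1 against 2849 for ALDH1A1. With the median length of coding transcripts instead, a choice made after the levels were seen, ALDH7A1 stood at 56.6 TPM in siCYP4F11 cells and 54.4 TPM in siControl cells. ALDH3B1 then stood at 90.3 TPM in siCYP4F11 cells and 114 TPM in siControl cells. That was above ALDH3A2, at 81.5 TPM in siCYP4F11 cells and 68.3 TPM in siControl cells, and above ALDH9A1, at 79.6 TPM in siCYP4F11 cells and 73.7 TPM in siControl cells. By that length ALDH3A2 stood above ALDH9A1 in siCYP4F11 cells and below it in siControl cells, so the order then differed between the libraries. ALDH3A1 and ALDH1A1 were first and second with either length.

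No member passed a 2-fold difference between the libraries. By the rule of at least 2-fold with a counting interval excluding 0, 0 of the 9 measured members were higher and 0 lower. By that rule 0.703% of all measured genes were higher and 1.26% lower, 1.96% in either direction. At 1.5-fold the members again gave 0 and 0, where 2.04% of measured genes were higher and 3.44% lower, or 5.47% in all. With 1 library per group no tool was run for a p-value. By the counting interval alone 2 members were higher, ALDH3A2 and ALDH9A1, and 2 lower, ALDH3B1 and ALDH3A1. The ALDH3A1 call was lost with total counts or DESeq2 size factors as the scaling, which left 1 lower member, and ALDH3A1 was higher with the GC correction, which gave 3 higher and 2 lower. No share of all genes is given here with that correction. All 9 measured members had a mean CPM above 10. Among genes at that level or above, without the GC correction, 23.7% were higher and 23.1% lower by the interval alone. The 4 of 9 members, 44.4%, lay near the 46.7% of those genes in either direction. The median log2 ratio of the 9 was 0.05, beside -0.01 over all measured genes. Summed over the 10 members, the level was 1704 CPM in siCYP4F11 cells and 1716 CPM in siControl cells, a log2 ratio of -0.01 (-0.03 to 0.02).

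**Figure D2:**
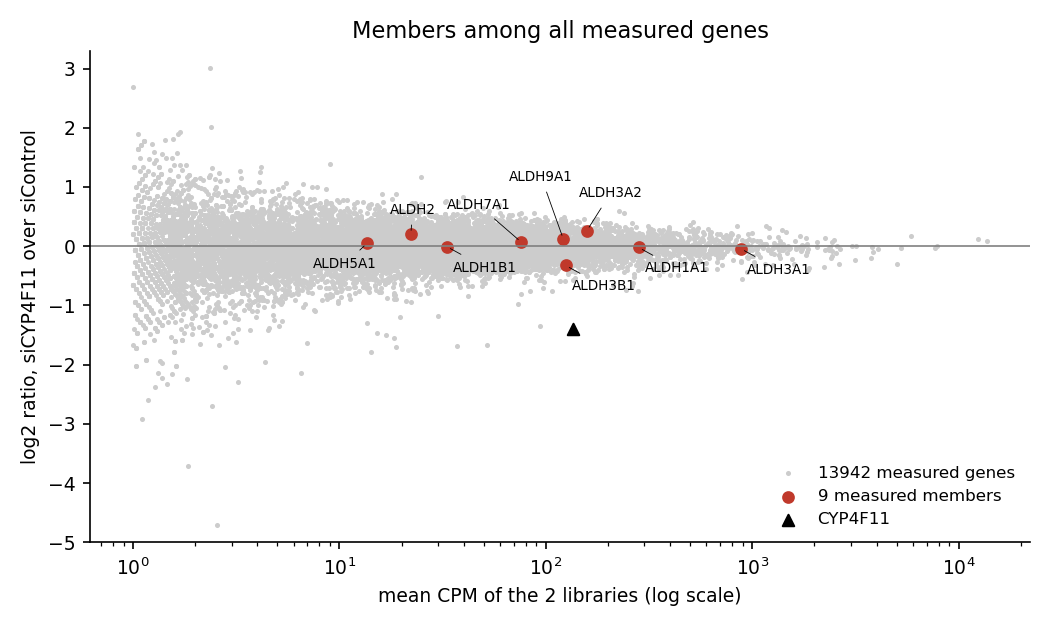
Log2 ratio of siCYP4F11 over siControl against mean CPM of the 2 libraries (log scale) for 13942 measured genes (grey), the 9 measured members (red) and CYP4F11 (black triangle). The members lie between -0.32 and 0.26, while CYP4F11 lies at -1.40.

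Within the ALDH3 subfamily the 3 enzymes had 3 different ratios. ALDH3A2 lies on the plus strand of chromosome 17 from 19648136 to 19677598 on GRCh38. It had 2250 counts (172 CPM) in siCYP4F11 cells and 2319 (144 CPM) in siControl cells. Its level was thus 20.0% higher in siCYP4F11 cells, a log2 ratio of 0.26 (0.18 to 0.35). Among the 2062 genes at 100 CPM or more on average, 94.3% had a lower log2 ratio. The SD of the log2 ratios of those genes was 0.18, while counting alone gives 0.041.

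ALDH3B1 lay on the opposite side. It had 1445 counts (111 CPM) in siCYP4F11 cells and 2238 (139 CPM) in siControl cells. Its level was 20.1% lower in siCYP4F11 cells, a log2 ratio of -0.32 (-0.42 to -0.23), and 4.17% of the genes at 100 CPM or more had a lower one. After a correction for transcript GC content it was at -0.21 (-0.30 to -0.11), with 10.6% of the corrected values below it. The gene lies on the plus strand of chromosome 11 from 68008578 to 68029282. Its close relative ALDH3B2, 327 kb away on the same chromosome, had 0 counts in both libraries. ALDH3B1 shares 1.05% of its 50-base words with other genes, of which ALDH3B2 shares the largest number.

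ALDH3A1 is the neighbour of ALDH3A2 on chromosome 17, on the minus strand from 19737984 to 19748943. The gap between the 2 genes is 60.4 kb and holds SLC47A2, a transporter gene, and AC005722.2. ALDH3A1 had 11308 counts (866 CPM) in siCYP4F11 cells and 14380 (891 CPM) in siControl cells. The log2 ratio was -0.04 (-0.08 to -0.005), and it was 0.07 (0.03 to 0.11) after a correction for transcript GC content, so its direction turned with that correction. No 50-base word of ALDH3A1 occurs in transcripts of another gene. There were 0.199 ALDH3A2 reads for each ALDH3A1 read in siCYP4F11 cells, against 0.161 in siControl cells, a ratio of 1.23 (1.16 to 1.31). That ratio was not corrected for GC content, and the corrected log2 ratios lay closer together, at 0.22 for ALDH3A2 and 0.07 for ALDH3A1.

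A ratio of reads between members within a library does not depend on how the libraries are scaled, but it was not corrected for GC content. ALDH3A2 had a GC content of 45.5% and ALDH3B1 of 61.2%. Their log2 ratios lay closer together after the GC correction, at 0.22 for ALDH3A2 and -0.21 for ALDH3B1. There were 1.56 ALDH3A2 reads for each ALDH3B1 read in siCYP4F11 cells and 1.04 in siControl cells. The ratio of these was 1.503 (1.375 to 1.643), and this pair was chosen because its log2 ratios were furthest apart among the measured members. The log2 ratios of the 2 genes had opposite signs, and their summed level was 283 CPM in siCYP4F11 cells and 282 CPM in siControl cells (log2 ratio 0.004, -0.06 to 0.07).

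**Figure D3:**
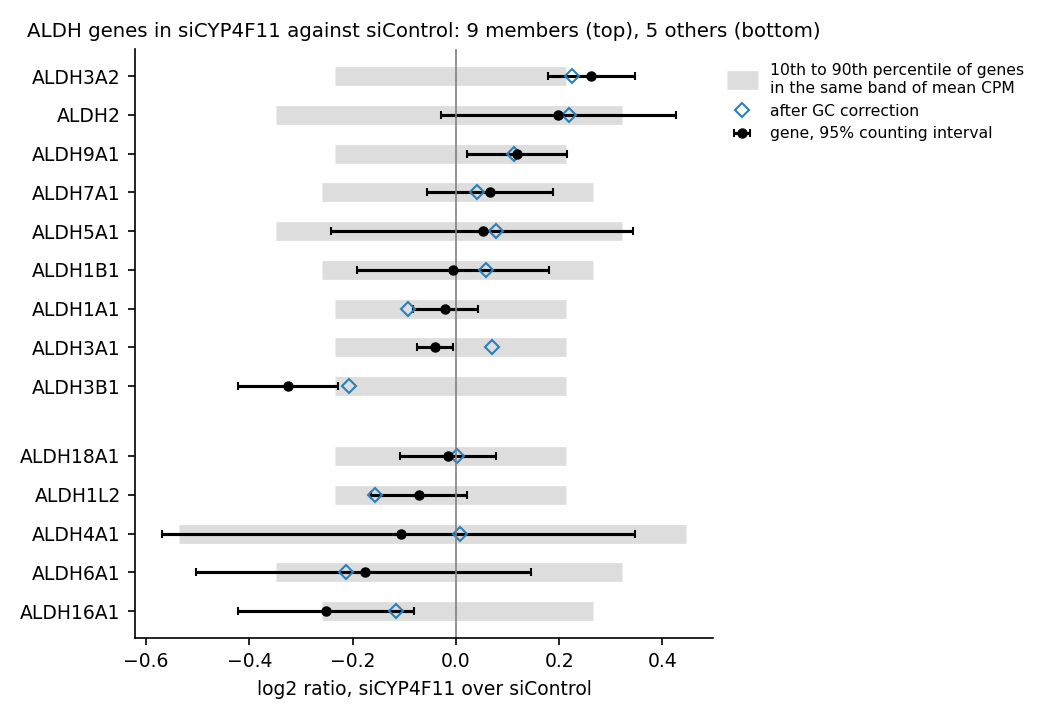
Log2 ratio of siCYP4F11 over siControl with its 95% counting interval (black) for the 9 measured members above and 5 other ALDH genes below. Grey bars span the 10th to 90th percentile of the uncorrected log2 ratios of genes in the same band of mean CPM. Diamonds give the value after GC correction, for which no bar is drawn. Without the correction ALDH3A2 at 0.26 and ALDH3B1 at -0.32 lie outside their grey bars, and the other genes lie inside. After it ALDH3B1 was at -0.21, with 10.6% of the corrected values of its band below it.

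The retinal-oxidising members were led by ALDH1A1, which makes retinoic acid from retinal. It had 3647 counts (279 CPM) in siCYP4F11 cells and 4574 (283 CPM) in siControl cells, a log2 ratio of -0.02 (-0.08 to 0.04). An interval this narrow puts the counting range of its fold between 0.944 and 1.03. ALDH1A1 is encoded on chromosome 9, minus strand, between 72900662 and 73080442. ALDH1A3, the other retinal oxidase of the set, lies on chromosome 15 from 100877714 to 100916626 and had 10 counts in siCYP4F11 cells and 17 in siControl cells. Its log2 ratio of -0.43 (-1.75 to 0.75) could not be told from 0 at this depth. Exons of the gene AC015712.2 on the other strand cover 27.5% of its exon bases, and the strand setting of the counting is not known.

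The mitochondrial enzymes ALDH2, ALDH1B1 and ALDH5A1 were at low to moderate levels. ALDH2, the main acetaldehyde dehydrogenase, had 309 counts (23.7 CPM) in siCYP4F11 cells and 333 (20.6 CPM) in siControl cells. Its log2 ratio was 0.20 (-0.03 to 0.43), so its interval included 0. Of its 50-base words, 9.15% occur in transcripts of other genes, and AC002996.1 is the gene that shares the largest number. That gene overlaps ALDH2 on the same strand of chromosome 12, where ALDH2 lies between 111766887 and 111817529. ALDH1B1, a mitochondrial relative of ALDH2 encoded on chromosome 9 from 38392664 to 38398661, had 431 counts in siCYP4F11 cells and 535 in siControl cells, a log2 ratio of -0.01 (-0.19 to 0.18). ALDH5A1, which oxidises succinic semialdehyde in the breakdown of GABA, had 181 counts in siCYP4F11 cells and 216 in siControl cells, a log2 ratio of 0.05 (-0.24 to 0.34). It lies on chromosome 6 from 24494852 to 24537207. Over these 3 genes the summed level was 70.6 CPM in siCYP4F11 cells and 67.2 CPM in siControl cells (log2 ratio 0.07, -0.06 to 0.20).

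The remaining pair serves lysine and carnitine metabolism. ALDH9A1, which oxidises trimethylaminobutyraldehyde on the way to carnitine, is encoded on chromosome 1, minus strand, between 165662216 and 165698863. It had 1652 counts (127 CPM) in siCYP4F11 cells and 1882 (117 CPM) in siControl cells. The log2 ratio was 0.12 (0.02 to 0.21), which lies within the central spread of genes at that level, where 76.2% had a lower one. ALDH7A1, which oxidises the semialdehyde formed in lysine breakdown, had 1017 counts (77.9 CPM) in siCYP4F11 cells and 1201 (74.4 CPM) in siControl cells. Its log2 ratio was 0.07 (-0.06 to 0.19). The gene spans chromosome 5, minus strand, 126531200 to 126595418. Of its 50-base words 2.26% are found elsewhere, and its pseudogene ALDH7A1P1 is the gene that shares the largest number.

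Transcript GC content moved with the log2 ratio over all genes, and the members differ in it. Across 9590 genes at 10 CPM or more the Spearman correlation was -0.42, given as a description, since genes share the same 2 libraries. When these genes were split by GC content into 10 groups of like size, the group poorest in GC had a median log2 ratio of 0.15 and the richest one of -0.13. ALDH3B1 and ALDH3A1 had the highest GC content of the members, 61.2% and 60.2%, while ALDH1A1 had 43.1% and ALDH3A2 45.5%. After a lowess correction on GC content ALDH3A2 was at 0.22 (0.14 to 0.31), and 93.5% of the corrected log2 ratios of genes at 100 CPM or more were below it. ALDH1A1 was at -0.09 (-0.16 to -0.03) after the correction, so its interval then excluded 0. Of the corrected log2 ratios of genes at 100 CPM or more, 29.6% were below it. Corrected intervals hold counting error alone and no error of the lowess fit.

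**Figure D4:**
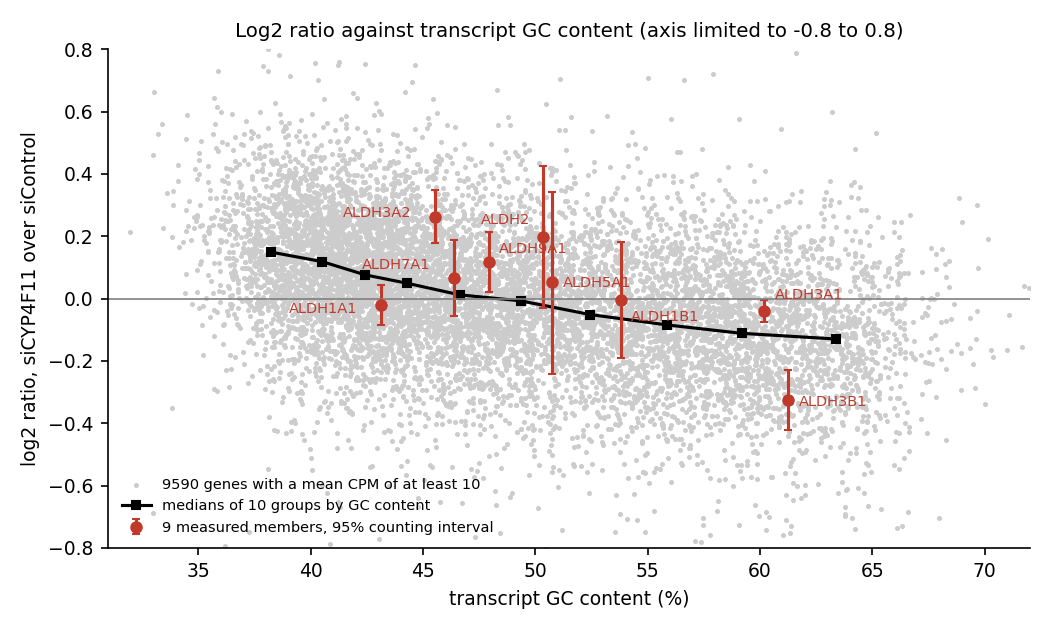
Log2 ratio of siCYP4F11 over siControl against transcript GC content in percent for 9590 genes at 10 CPM or more (grey), the medians of 10 groups of genes by GC content (black squares) and the 9 measured members with 95% counting intervals (red). The medians run from 0.15 at low GC content to -0.13 at high GC content. ALDH3A2 at 0.26 lies above the line and ALDH3B1 at -0.32 below it.

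Of the 9 other ALDH family genes 5 were measured, and 0 of these passed 2-fold. Their log2 ratios were all below 0, with a median of -0.11, where 7083 of the 13942 measured genes were below 0. After the GC correction ALDH4A1 was at 0.007 and ALDH18A1 at 0.002, so 3 of the 5 were then below 0. ALDH16A1, on chromosome 19, had 477 counts in siCYP4F11 cells and 702 in siControl cells, a log2 ratio of -0.25 (-0.42 to -0.08). With a GC content of 65.7% it was at -0.12 (-0.29 to 0.05) after the GC correction, so that interval included 0. ALDH18A1, which makes the precursor of proline and ornithine, had 1711 counts in siCYP4F11 cells and 2138 in siControl cells, a log2 ratio of -0.01 (-0.11 to 0.08). ALDH1L2, a mitochondrial folate enzyme, had 1670 counts in siCYP4F11 cells and 2170 in siControl cells, a log2 ratio of -0.07 (-0.16 to 0.02). ALDH6A1 of valine breakdown had 138 in siCYP4F11 cells and 193 in siControl cells, a log2 ratio of -0.18 (-0.50 to 0.15). ALDH4A1 of proline breakdown had 72 in siCYP4F11 cells and 96 in siControl cells, a log2 ratio of -0.11 (-0.57 to 0.35). It shares 37.6% of its 50-base words with other genes, of which AL080251.1 shares the largest number. ALDH1L1, not measured by the CPM rule, had 10 counts in siCYP4F11 cells and 5 in siControl cells, a log2 ratio of 1.24 (-0.38 to 3.21). ALDH8A1, likewise not measured, had 2 in siCYP4F11 cells and 6 in siControl cells, a log2 ratio of -1.07 (-4.62 to 1.20). ALDH1A2 and ALDH3B2 had 0 in both. A count of 0 allows up to 3 counts, which is 0.230 CPM in siCYP4F11 cells and 0.186 CPM in siControl cells.

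Lists of genes around the members were compared by the same rules. Over all measured genes, 18.6% were higher and 19.2% lower by the counting interval, 37.8% in all. These shares are without the GC correction, so they are no background for the corrected counts below. Of 12 CYP4 hydroxylases 3 were measured, with a median log2 ratio of -0.19, and of these only CYP4F11 passed the 2-fold rule. By the interval 1 was higher and 1, CYP4F11, was lower. Of the 8 alcohol dehydrogenase genes 1 was measured, ADH5, the glutathione-dependent formaldehyde dehydrogenase. It had 1725 counts in siCYP4F11 cells and 1865 in siControl cells, a log2 ratio of 0.19 (0.10 to 0.29). The other 7 alcohol dehydrogenases, including the ADH7 and ADH4 enzymes that act on long-chain alcohols, were below a mean CPM of 1.

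Of 11 genes that give rise to fatty aldehydes or their precursors 9 were measured, 8 of them with a log2 ratio above 0, and the median was 0.23. By the counting interval 4 were higher and 0 lower, and 0 passed 1.5-fold. After the GC correction 3 were higher and the median was 0.16. ACER3, an alkaline ceramidase, had 445 counts in siCYP4F11 cells and 439 in siControl cells, a log2 ratio of 0.33 (0.13 to 0.52). PHYH, the peroxisomal phytanoyl-CoA hydroxylase, had 336 in siCYP4F11 cells and 342 in siControl cells, a log2 ratio of 0.28 (0.06 to 0.50). GC contents of 40.6% for ACER3 and 46.3% for PHYH go with corrected values of 0.22 and 0.25.

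Peroxisomal chain shortening, which takes up the dicarboxylic acids, was mixed. Of 17 genes 16 were measured, with a median of 0.01, and by the interval 3 were higher and 1 lower. SLC27A2, an acyl-CoA synthetase of very long chains, had 248 counts in siCYP4F11 cells and 231 in siControl cells, a log2 ratio of 0.41 (0.14 to 0.67). AMACR, the racemase of branched acyl-CoA, had 38 in siCYP4F11 cells and 24 in siControl cells, a log2 ratio of 0.96 (0.19 to 1.77). However, 60.0% of its 50-base words are shared, and the readthrough gene C1QTNF3-AMACR shares the largest number.

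Retinoic acid genes, which act beside ALDH1A1, were mixed too. Of 25 genes 14 were measured, with a median of 0.04, and by the interval 3 were higher and 3 lower. CYP26B1, which breaks down retinoic acid, had 74 counts in siCYP4F11 cells and 48 in siControl cells, a log2 ratio of 0.93 (0.39 to 1.49). That gene passed 1.5-fold but not 2-fold. RDH14, a retinol dehydrogenase, had 437 in siCYP4F11 cells and 441 in siControl cells, a log2 ratio of 0.29 (0.10 to 0.49), with 13.8% of its words shared with other genes. After the GC correction 0 of the genes were lower by the interval.

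Of 14 genes of aldehyde and carbonyl reductases 11 were measured, with a median log2 ratio of 0.18. By the interval 6 were higher and 2 lower, while 0 passed 1.5-fold. After the GC correction 8 were higher and 1 lower, and no share of all genes is given here with that correction. AKR1C1, an aldo-keto reductase of steroids and lipid aldehydes, had 7849 counts in siCYP4F11 cells and 7864 in siControl cells, a log2 ratio of 0.30 (0.26 to 0.35). It shares 28.6% of its 50-base words with other genes, of which AKR1C2 shares the largest number, so its value is uncertain. AKR1C3, a prostaglandin and steroid reductase, had 7300 in siCYP4F11 cells and 7664 in siControl cells, a log2 ratio of 0.24 (0.19 to 0.28).

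Partners of ALDH5A1, ALDH7A1 and ALDH9A1 in GABA, lysine, carnitine and amine metabolism had a median of -0.03 over 13 measured of 23. By the interval 3 were higher and 3 lower, and after the GC correction 1 was higher and 3 lower. PAOX, the peroxisomal polyamine oxidase, passed the 2-fold rule by its point value, with 9 counts in siCYP4F11 cells and 31 in siControl cells (log2 ratio -1.42, -2.73 to -0.37), an interval that reaches differences under 2-fold.

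**Figure D5:**
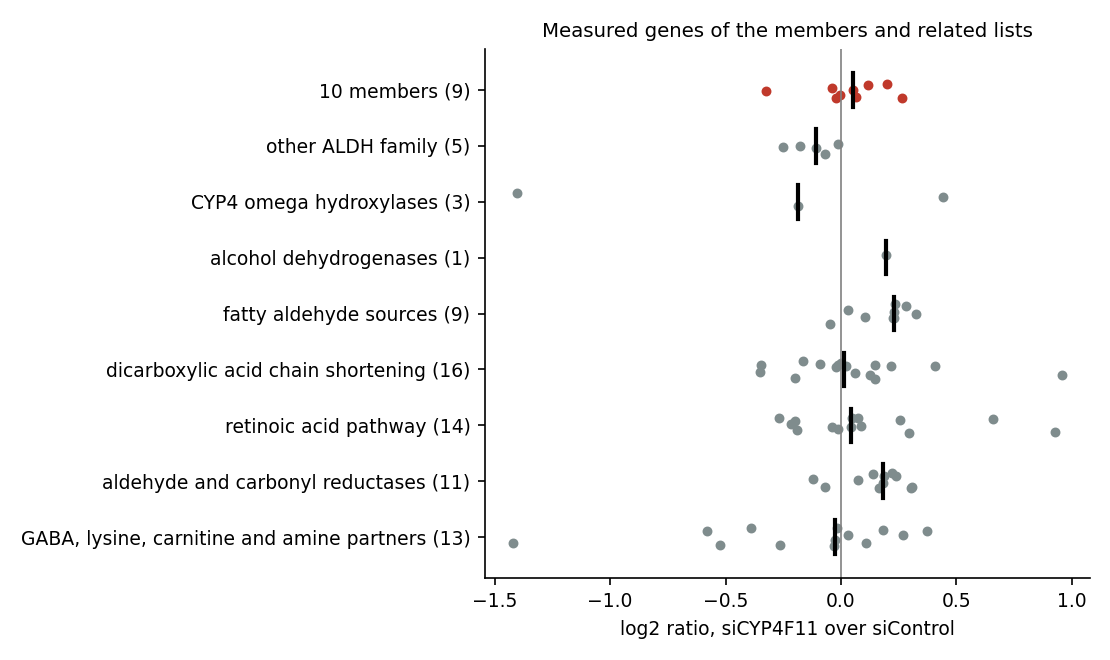
Log2 ratio of siCYP4F11 over siControl for each measured gene (points) of the members (red) and of 8 related lists (grey), with the median of each list as a bar and the number measured in brackets. The median was 0.05 for the members, 0.23 for fatty aldehyde sources and 0.18 for aldehyde and carbonyl reductases. After the GC correction, not drawn here, these medians were 0.07, 0.16 and 0.17.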

How the data were processed

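The authors deposited whole-number read counts per gene for both libraries, not normalised, with the length in bases of each gene model. Per the submitters' processing notes the build was GRCh38 and the tools were HISAT2 2.2.1, featureCounts 2.0.6, fastp and edgeR 4.0.16, with no role, parameter or strand setting. Poly-A RNA was made into dUTP strand-specific libraries, per the labels' protocols. All 58735 identifiers, symbols and coordinates matched GENCODE 29. Other sample columns numbered 0.

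Counts were scaled over the whole table by TMM (edgeR 4.0.16, R 4.3.3), and 0.5 was added to each count for the log2 ratio. Clopper-Pearson limits on the part of a gene's counts that came from siCYP4F11 gave the intervals of log2 ratios. Pairs of genes were given the exact conditional interval of the odds ratio, and TPM values exact Poisson limits. The log2 ratios, their intervals and the 2-fold calls were tested on simulated Poisson counts, which hold counting error alone. The scaling, the pair intervals and the TPM limits were not tested in that way. GC content and 50-base words were taken from GENCODE transcripts on the sense strand, and the lowess span was 0.3. Alternatives were total counts, DESeq2 1.42.0 size factors, upper-quartile sizes, 2 added to each count, other thresholds and filters, the mean over members and the GC correction.

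The 14 lists, the members among them, held 161 entries with 1 not found and were chosen with earlier results of these data known. Named genes were the ALDH family and CYP4F11, and of each other list those past 2-fold, or otherwise up to 2 with the largest log2 ratios whose interval excluded 0. Markers were chosen in the same way and are given mainly as sums. Tools were Python 3.11.15, scipy 1.17.1, pandas 2.3.3, numpy 2.4.6, statsmodels 0.14.6 and matplotlib 3.10.9.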

Additional observations from a re-analysis of the deposited data

How the results depend on the processing

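Over the 5 alternatives run for single genes, ALDH3A2 lay between 0.22 and 0.27 and ALDH9A1 between 0.11 and 0.13. ALDH3B1 lay between -0.32 and -0.21, and the intervals of these genes excluded 0 each time. Adding 2 to each count changes the point value alone, so the interval is then the reported one. The other scalings shift the log2 ratios of all genes by the same small amount. ALDH3A1 changed sign, to 0.070 with the GC correction, and its interval included 0 with total counts and with DESeq2 size factors. The number of members lower by the interval was therefore 1 under those scalings, against 2 as reported. With the GC correction 3 members were higher (ALDH3A1, ALDH3A2 and ALDH9A1) and 2 lower (ALDH1A1 and ALDH3B1). ALDH1L2 in place of ALDH16A1 was then the 1 lower gene of the other family members. Counts past 2-fold stayed at 0 under every filter and threshold run. The stricter settings could only return 0 again, and the measured members, between -0.32 and 0.26, lay far from 2-fold. The members' median lay between 0.05 and 0.07, with a mean of 0.03. No share of all genes is given here with the GC correction. In the related lists that correction left 0 lower retinoic acid genes and 8 higher and 1 lower reductases. It left 3 higher fatty aldehyde genes and 1 higher partner gene of GABA, lysine, carnitine and amine metabolism. The cause was not tested. No paired analysis was possible because each group has 1 library. For the same reason no library could be left out. Among the members depth limits ALDH1A3 most, with 10 counts in siCYP4F11 cells and 17 in siControl cells.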
